A study of Mus musculus with 6 samples.

Results

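Heat shock chaperones and their cochaperones were examined in gastrocnemius muscle, the large muscle of the calf, of muscle Usp21 knockout and control mice. The members were all genes of the Hspa, Hspb, Hsph, Hspd, Hspe, Hsp90a, Dnaja, Dnajb, Dnajc and Bag families together with Cryab, Hsf1 and Hsf2. They were picked by a rule on gene symbols, which was set with earlier results of these data known. They numbered 81 of the 24532 genes in the table. The name pattern took in Hspb11 and Hspbap1, which are not chaperones of the classical families, and left out Hsp90b1, the HSP90 of the endoplasmic reticulum, which is given with the partners. By the compartment in which the protein is known to work, 55 members were counted as cytosolic (nuclear and vesicle-bound proteins included), 11 as belonging to the endoplasmic reticulum and 10 as mitochondrial, and 5 were not assigned.

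Knockout mice carried floxed Usp21 alleles (USP21 flox/flox) and Ckmm-Cre, a Cre recombinase under the muscle creatine kinase promoter, which is active in muscle fibres and not in the other cells of the tissue. Control mice carried USP21 flox/flox without Cre and are labelled as litter. All were 12-week-old C57BL/6 mice, with 3 libraries in each group, and nothing in the labels says which animals shared a litter or a day, so any p-value reflects only how far these libraries vary, which may be technical in part. Which exons are removed is not given in the labels. Poly(A)-selected libraries held between 48658436 and 67332846 counts. In CPM, counts scaled by library size and TMM factors, the level of Usp21, which codes for a deubiquitinating enzyme, was 9.08, 7.19 and 7.47 in the knockout libraries numbered 1 to 3 and 19.3, 19.3 and 19.2 in the control libraries numbered 1 to 3 (log2 fold change -1.28, edgeR adjusted p = 0.0355). Cells other than fibres keep the gene, and in whole muscle fewer cells of a type and less RNA per cell cannot be told apart. Fast fibre markers summed to between 148487 and 182780 CPM in knockout muscle and between 127781 and 163704 CPM in control muscle, and none of the 8 markers was at 0.

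Chaperones bind unfolded proteins and keep them from aggregating. HSP70 proteins do this in cycles of ATP hydrolysis, which J proteins (the Dnaj families) start and which exchange factors such as HSP110 and BAG proteins reset; HSP90 acts later on many kinases and receptors, the chaperonin made of Hspd1 and Hspe1 folds proteins in the mitochondrial matrix, and small heat shock proteins hold clients without ATP. Hsf1 is the main transcription factor of the heat shock response, and it binds repeats of the letters GAA in alternating orientation. Skeletal muscle contains large amounts of small heat shock proteins, several of which sit at the Z-disc and are more abundant in slow than in fast fibres.

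The promoters of 6 members are shown because they carry matches to the heat shock element or to the endoplasmic reticulum stress element, and because their genes are among those with the largest differences or the full motif. They run from 250 bases before to 50 bases after an annotated gene start, 5′ to 3′ on the gene's strand (RefSeq, GRCm38.p6, the assembly named mm10). Capitals mark the motif matches.
Hspa1a, chr17:34972107-34972406, - strand: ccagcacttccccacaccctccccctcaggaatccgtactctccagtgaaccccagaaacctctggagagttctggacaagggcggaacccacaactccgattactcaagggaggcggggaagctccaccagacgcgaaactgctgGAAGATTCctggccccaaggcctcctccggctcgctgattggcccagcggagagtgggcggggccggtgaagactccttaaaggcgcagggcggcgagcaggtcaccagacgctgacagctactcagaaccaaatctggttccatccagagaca
Hsph1, chr5:149636266-149636565, - strand: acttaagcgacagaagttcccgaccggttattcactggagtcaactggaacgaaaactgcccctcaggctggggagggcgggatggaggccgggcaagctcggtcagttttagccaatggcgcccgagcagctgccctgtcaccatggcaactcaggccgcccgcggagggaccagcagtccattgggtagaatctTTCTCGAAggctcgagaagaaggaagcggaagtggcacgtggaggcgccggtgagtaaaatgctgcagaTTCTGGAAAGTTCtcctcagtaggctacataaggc
Dnajb6, chr5:29735648-29735947, + strand: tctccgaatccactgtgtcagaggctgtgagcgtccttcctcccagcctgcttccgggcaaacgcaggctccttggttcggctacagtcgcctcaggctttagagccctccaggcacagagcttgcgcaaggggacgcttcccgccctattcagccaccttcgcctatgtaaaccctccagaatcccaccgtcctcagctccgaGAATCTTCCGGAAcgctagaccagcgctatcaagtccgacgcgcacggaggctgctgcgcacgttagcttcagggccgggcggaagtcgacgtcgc
Hspe1, chr1:55087898-55088197, + strand: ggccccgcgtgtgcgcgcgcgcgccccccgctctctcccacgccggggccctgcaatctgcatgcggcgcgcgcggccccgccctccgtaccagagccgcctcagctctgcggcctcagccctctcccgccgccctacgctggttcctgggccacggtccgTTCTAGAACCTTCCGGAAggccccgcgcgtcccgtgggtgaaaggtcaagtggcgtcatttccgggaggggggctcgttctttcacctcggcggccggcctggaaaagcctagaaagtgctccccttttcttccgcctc
Hspa5, chr2:34771840-34772139, + strand: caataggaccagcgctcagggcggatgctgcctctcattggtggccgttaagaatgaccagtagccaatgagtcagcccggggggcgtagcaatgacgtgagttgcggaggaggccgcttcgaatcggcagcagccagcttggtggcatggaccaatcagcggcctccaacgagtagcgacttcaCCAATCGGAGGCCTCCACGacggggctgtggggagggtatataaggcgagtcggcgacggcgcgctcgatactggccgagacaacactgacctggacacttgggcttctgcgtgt
Dnajc3, chr14:118937682-118937981, + strand: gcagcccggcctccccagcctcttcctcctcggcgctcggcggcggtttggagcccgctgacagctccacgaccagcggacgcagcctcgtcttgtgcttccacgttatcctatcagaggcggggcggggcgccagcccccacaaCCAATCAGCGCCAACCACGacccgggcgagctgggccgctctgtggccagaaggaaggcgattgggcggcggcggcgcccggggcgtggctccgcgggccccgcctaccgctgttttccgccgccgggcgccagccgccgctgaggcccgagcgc

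Promoter sequences were found for 64 of the 81 members. The heat shock element was searched on both strands as 3 repeats, written GAANNTTC followed by NN and GAA. It was present in the promoters of 4 members, namely Hsph1, Dnajb6, Hspd1 and Hspe1, or 6.25% of those with a sequence, against 0.662% of all genes with a promoter sequence and 0.603% of all promoter windows of this length. The Hspe1 window overlaps that of its neighbour Hspd1, which is transcribed the other way, over 285 bases, so the same matches serve for both. The shorter form of 2 repeats, GAANNTTC or TTCNNGAA, each of which reads the same on both strands and lies within every match of the longer form, was present in 17 members (26.6%), against 17.0% of all genes and 15.1% of all windows. Among these were Hspa1a and Hspa1b, with the match starting 104 bases before the start of each gene. Their windows are identical at 296 of 300 bases. The endoplasmic reticulum stress element, CCAAT and CCACG with 9 letters of any kind between them, was found on the printed strand of Hspa5 and Dnajc3, 3.13% of members with a sequence, against 0.137% of all genes and 0.119% of all windows when both strands are read. These matches describe the letters of the windows and say nothing of binding.

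Of the 81 members 72 had enough reads to be tested. The other 9 were Hspb9, Dnajb3, Dnajb7, Dnajb8, Dnajb13, Dnajc5b, Dnajc5g, Dnajc6 and Dnajc22, of which 7 had no count in any library and 2 had at most 11. Levels between genes were compared in FPKM, the deposited value per gene length and library size. The most abundant member by mean FPKM over the 6 libraries was the small heat shock protein Hspb6, with 767 FPKM in knockout and 639 FPKM in control muscle on average. It was followed by Hspa8, the constitutive cytosolic HSP70 (785 FPKM in knockout and 533 FPKM in control muscle), Cryab, the small heat shock protein alpha-B crystallin that binds desmin and other filaments (571 and 625 FPKM in knockout and control muscle), and Hsp90ab1, the constitutive HSP90 (572 and 540 FPKM in knockout and control muscle). Hspa9, the mitochondrial HSP70, led its compartment with 176 FPKM in knockout and 161 FPKM in control muscle, and Hspa5, the HSP70 of the endoplasmic reticulum known as BiP, led its own with 87.3 and 60.2 FPKM in knockout and control muscle. Per gene length the heat-inducible Hsp90aa1 was far below Hsp90ab1, at 33.3 FPKM in knockout and 17.0 FPKM in control muscle.

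No member passed edgeR's quasi-likelihood test at an adjusted p under 0.05 over all genes, where 0.0567% of the 14109 genes tested passed (0.0354% higher and 0.0213% lower in knockout muscle), and the smallest adjusted p of a member was 0.305. At an unadjusted p under 0.05, 12 members were higher and 1 was lower in knockout muscle. That is 18.1% of the 72 tested, against 11.6% of all genes, and 16.7% in the upward direction against 6.56% of all genes; downward the background was 5.07%. DESeq2's Wald test called 1 member, Dnajb9 (2.1% of all genes with an adjusted p), and limma-voom called 0 members (0.0354% of all genes), with 10 at an unadjusted p under 0.05. Log2 fold changes, given throughout as knockout minus control, were positive for 44 members and negative for 28 (61.1% positive, against 49.3% of all genes), with a median of 0.054 against -0.0037 over all genes.

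**Figure D1:**
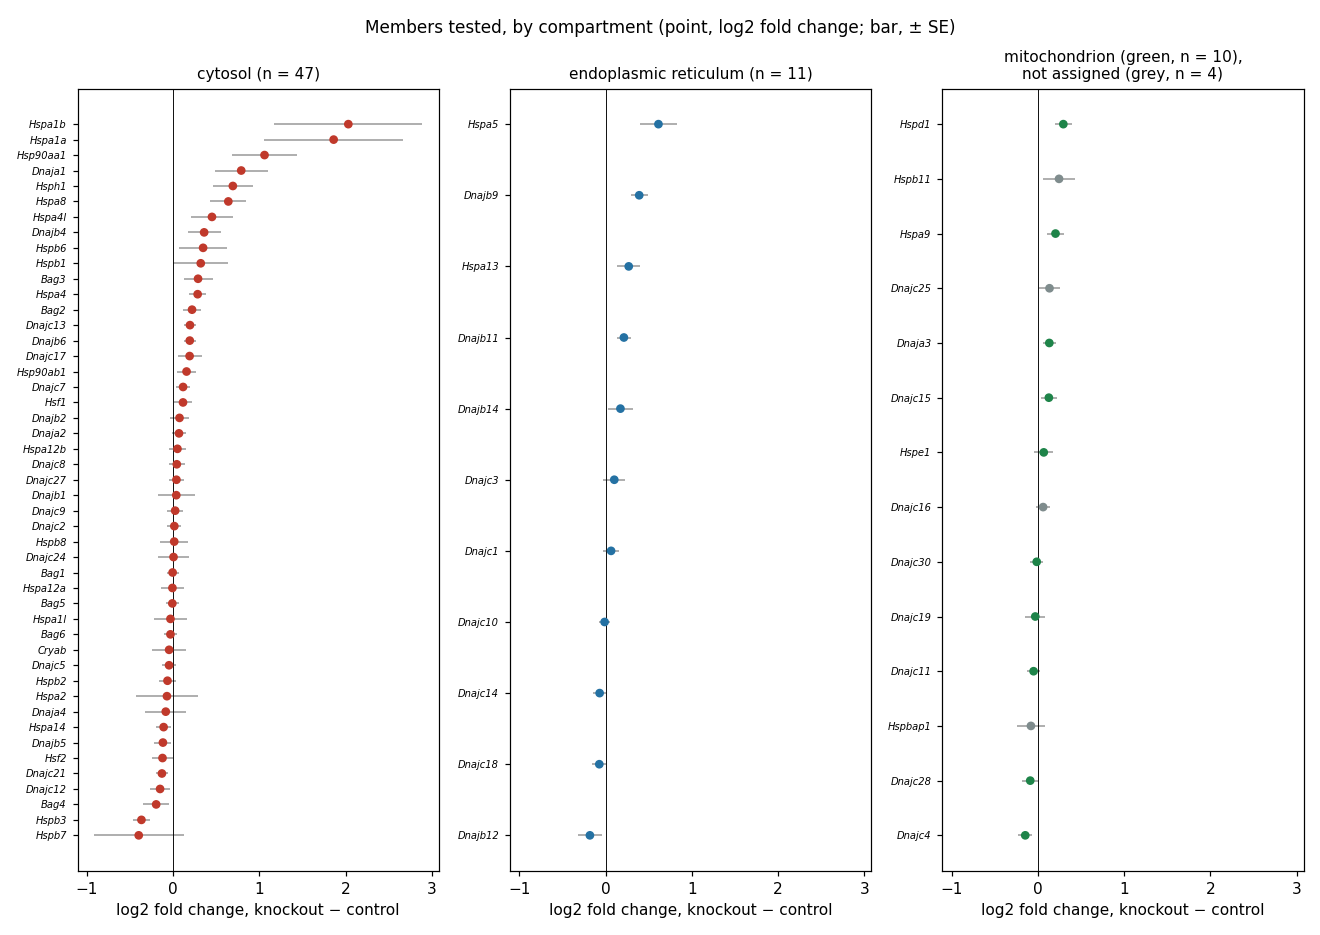
Log2 fold change (knockout minus control, horizontal axis) of the 72 members tested, 1 row per gene, with bars of 1 SE from edgeR, in panels by compartment. The cytosolic panel runs from -0.40 for Hspb7 to 2.03 for Hspa1b, whereas mitochondrial members lie between -0.15 and 0.29.

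By compartment, 29 of 47 cytosolic members tested had a log2 fold change above 0, and their median was 0.037. In the endoplasmic reticulum 7 of 11 were above 0 (median 0.10), and among mitochondrial members 5 of 10 were (median 0.025). Upward, unadjusted p fell under 0.05 for 8 cytosolic members (17.0%), 3 of the endoplasmic reticulum (27.3%) and 1 mitochondrial member (10%), against 6.56% of all genes. Downward it did so for 1 cytosolic member, against 5.07% of all genes. The compartments differed more in range than in median: cytosolic log2 fold changes ran from -0.40 to 2.03, those of the endoplasmic reticulum from -0.18 to 0.61 and mitochondrial ones from -0.15 to 0.29. A range widens with the number of genes, and the cytosolic list was the longest. Hspa1b and Hspa1a, with SEs of 0.86 and 0.81, set its upper end. Differences between the compartments were not tested. In FPKM instead of counts the cytosolic and mitochondrial medians were below 0 (-0.032 and -0.046 with 1 added), where the median of all genes was -0.047.

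Summed levels averaged higher in knockout than in control muscle in each compartment, and a few abundant genes carried each sum. Cytosolic members summed to 8936, 9708 and 7836 CPM in knockouts 1 to 3, against 7703, 8420 and 6792 CPM in controls 1 to 3, with Hspa8, Hsp90ab1 and Hspb6 making up 45.8% of the sum (exact permutation test, two-sided p = 0.2). The groups overlapped. Members of the endoplasmic reticulum summed to 596, 623 and 483 CPM in knockouts, against 482, 478 and 462 CPM in controls (exact permutation p = 0.1). The groups did not overlap, but knockout 3 was within 1 CPM of control 1, and Hspa5 alone made up 36.8%. Mitochondrial members summed to 1253, 1229 and 1204 CPM in knockouts, against 1137, 1119 and 1033 CPM in controls, without overlap (exact permutation p = 0.1, the smallest that 3 against 3 libraries allow). Hspa9 held 44.7% of that sum.

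The members with the largest log2 fold changes, Hspa1b, Hspa1a, Hsp90aa1, Dnaja1 and Hsph1, were cytosolic and heat-inducible, and they were uneven among the knockout mice. Next came the cytosolic Hspa8 (0.64) and Hspa5 of the endoplasmic reticulum (0.61). Hspa1a, the classical inducible HSP70 (Entrez 193740; mm10, chromosome 17, 34969359 to 34972156), had 74.4, 125 and 10.7 CPM in knockouts 1 to 3, against 13.8, 33.7 and 10.4 CPM in controls 1 to 3. Knockouts 1 and 2 were above every control and knockout 3 was below 2 of the 3. The mean was 3.64 times the control mean, with a log2 fold change of 1.86 (SE 0.81, edgeR adjusted p = 0.434). Its neighbour Hspa1b (Entrez 15511; chromosome 17, 34956429 to 34959238) had the same order of libraries, with 61.9, 102 and 7.41 CPM in knockouts and 9.37, 25.2 and 7.22 CPM in controls (log2 fold change 2.03, SE 0.86, edgeR adjusted p = 0.423). The genes are near-identical: 47.1% of all stretches of 100 bases in the Hspa1a transcript occur unchanged in that of Hspa1b, so how reads were divided between them is uncertain. The related Hspa1l, which adjoins them and is known for its expression in testis, was at 34.6, 30.9 and 39.1 CPM in knockouts and 33.9, 46.0 and 27.1 CPM in controls, and 5.65% of its stretches of this length occur in Hspa1a.

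The inducible HSP90 gene Hsp90aa1 (Entrez 15519; chromosome 12, 110691036 to 110696395) had 110, 145 and 42.9 CPM in knockouts, against 45.1, 52.5 and 45.6 CPM in controls. Knockout 3 was thus below every control, and the other knockouts were well above the highest control (log2 fold change 1.06, SE 0.38, edgeR adjusted p = 0.376). Dnaja1, a J protein that partners the cytosolic HSP70 (Entrez 15502; chromosome 4, 40722468 to 40734965), was at 73.4, 97.5 and 36.7 CPM in knockouts, against 38.6, 37.8 and 43.7 CPM in controls, again with knockout 3 lowest of all 6 libraries (0.79, SE 0.31, edgeR adjusted p = 0.396). Hsph1, the heat-inducible HSP110 exchange factor (Entrez 15505; chromosome 5, 149616843 to 149636498), was at 146, 178 and 88.0 CPM in knockouts, against 79.5, 83.5 and 92.2 CPM in controls (0.69, SE 0.23, edgeR adjusted p = 0.363). Its 3-repeat match is printed above. Hspa8 (Entrez 15481; chromosome 9, 40801276 to 40805202) was at 1752, 2243 and 1181 CPM in knockouts, against 1073, 1121 and 1130 CPM in controls, so the groups did not overlap but knockout 3 exceeded the highest control by less than the gap to the other knockouts (0.64, SE 0.21, edgeR adjusted p = 0.363).

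**Figure D2:**
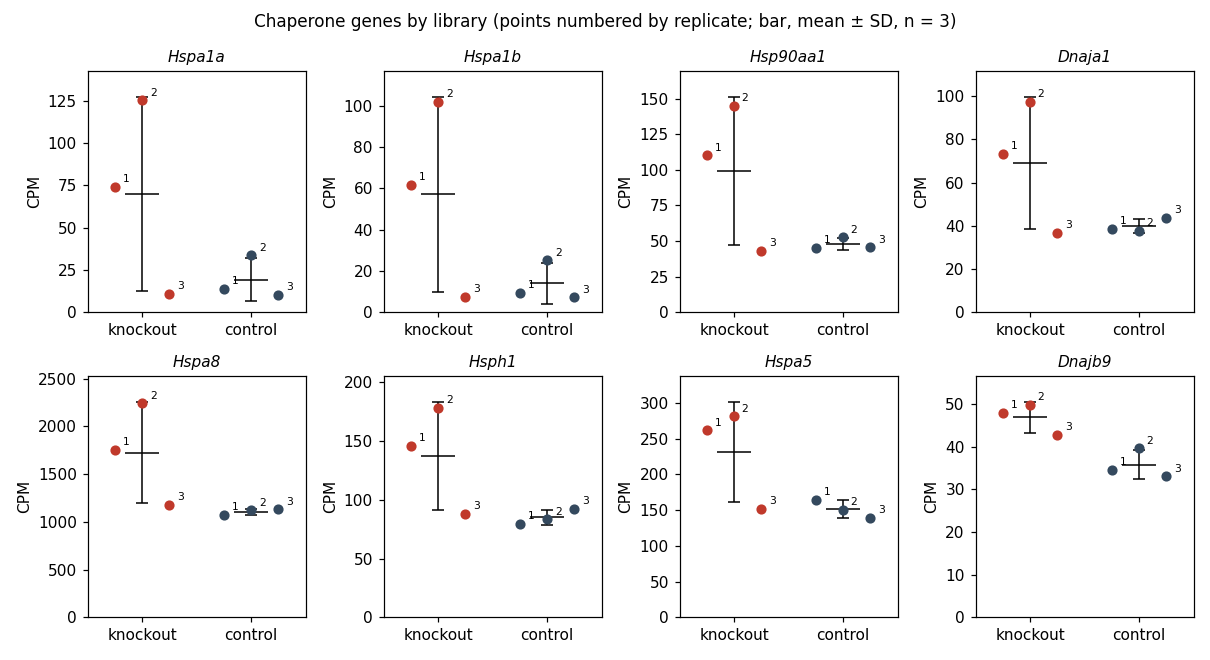
Level in CPM (vertical axes from 0) of 8 chaperone genes in knockout libraries (left, red) and control libraries (right, dark), with points numbered by replicate and bars for the mean and SD of 3 libraries. Knockouts 1 and 2 stand above all controls in every panel, while knockout 3 stands at the control level except for Hspa8 and Dnajb9, where it is just above.

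The other genes of the heat-inducible set had smaller log2 fold changes, Cryab being given with the small heat shock genes. Bag3, the exchange factor that serves chaperone-assisted autophagy in muscle, was at 266, 279 and 221 CPM in knockouts and 220, 247 and 160 CPM in controls (log2 fold change 0.29, SE 0.17, edgeR adjusted p = 0.557; 0.13 without control 3). The order of its knockouts was the same, with knockout 2 highest. Hspb1, the small heat shock protein HSP27 in human nomenclature, was at 236, 297 and 129 CPM in knockouts and 153, 238 and 140 CPM in controls (0.32, SE 0.32, edgeR adjusted p = 0.733). Its log2 fold change ran from 0.044 without knockout 2 to 0.59 without knockout 3, with 0.58 without control 2 and 0.17 without control 3. Dnajb1, the J protein of the heat shock response, stood apart from Dnaja1, at 9.51, 9.61 and 5.73 CPM in knockouts and 7.72, 9.34 and 7.20 CPM in controls (0.035, SE 0.21, edgeR adjusted p = 0.967). Knockout 3 was the lowest of the 6 libraries for both genes. Outside that set, the constitutive Hsp90ab1 was at 1517, 1617 and 1342 CPM in knockouts, against 1272, 1249 and 1501 CPM in controls (0.15, SE 0.11, edgeR adjusted p = 0.643). Bag1, an exchange factor that also links HSP70 to the proteasome, was at 143, 150 and 144 CPM in knockouts, against 145, 146 and 149 CPM in controls, with the groups interleaved (-0.0078, SE 0.070, edgeR adjusted p = 0.980). The transcription factors themselves differed little in their means: Hsf1 was at 58.9, 59.4 and 50.6 CPM in knockouts and 48.0, 49.8 and 58.3 CPM in controls (0.11, SE 0.11, edgeR adjusted p = 0.717). Hsf2 was at 21.3, 22.6 and 21.0 CPM in knockouts and 22.8, 27.6 and 20.3 CPM in controls (-0.12, SE 0.12, edgeR adjusted p = 0.726).

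The order with knockouts 1 and 2 above every control and knockout 3 not recurred across the members. It was looked for after the values of Hspa1a and its like were seen. It held for 17 of the 72 tested (23.6%), against 9.66% of all genes. The reverse choices were rarer, with knockouts 1 and 3 above and knockout 2 not for 2 members (3.98% of all genes) and knockouts 2 and 3 above and knockout 1 not for 4 members (3.22% of all genes). Of the 17, 12 were cytosolic (25.5% of those tested) and 3 belonged to the endoplasmic reticulum (27.3% of those tested). Another 1 was mitochondrial (Hspe1, 10% of those tested) and 1 was not assigned (Dnajc25, 25% of those tested). The cytosolic ones were Hspa1a, Hspa1b, Hspa4l, Hspa12b, Hsph1, both HSP90 genes, Dnaja1, Dnajb1, Dnajb4, Bag3 and Hsf1. Knockout 3 was the lowest knockout for 37 of the 72 members (51.4%), against 37.7% of all genes. The gap was widest for Hspa1b, where knockout 3 lay 3.42 below the mean of knockouts 1 and 2 on the log2 CPM scale, and narrow for Hsp90ab1, at 0.22 below. No small heat shock gene tested showed the order (0 of 7), though Hspb1 came close, with 236 CPM in knockout 1 against 238 CPM in control 2. Of 16 tested members with the 2-repeat match in their promoter 7 showed the order, and of 41 tested members with a promoter sequence and no match 6 did. This was counted without a test. It is not independent of the genes that prompted the search, as Hspa1a and Hspa1b, with near-identical windows, are among the 7, as are Dnaja1 and Hsph1. Hsp90aa1, Hsp90ab1, Hspa13 and Hsf1 showed the order but had no promoter sequence and were not counted. Control 2 was the highest of the controls for both Hspa1a and Hspa1b, so spread within the control group was also large for these genes.

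**Figure D3:**
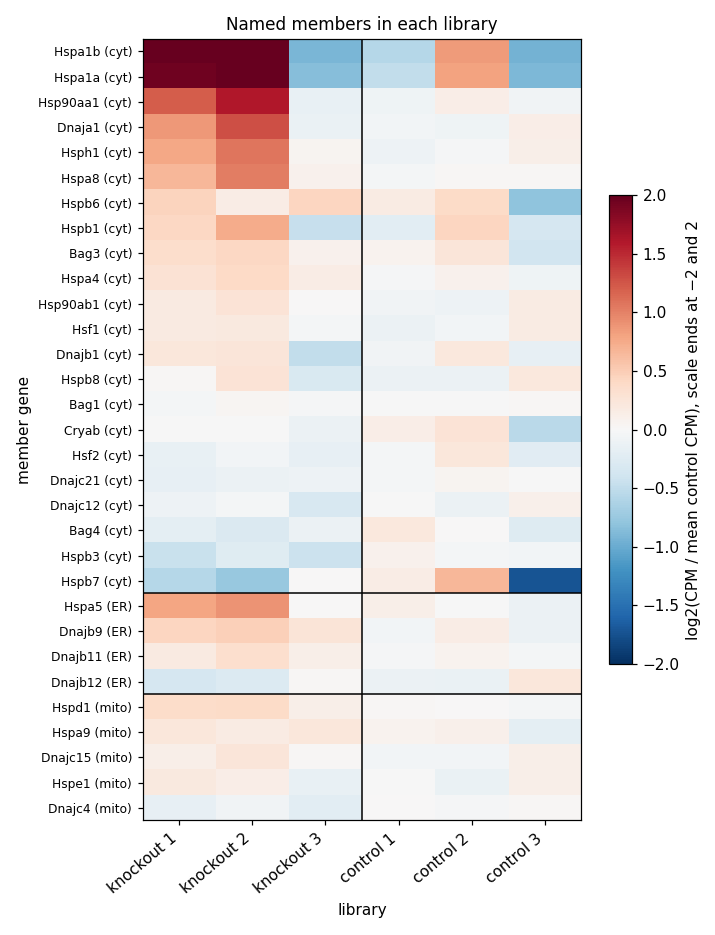
Level of 31 named members in each library, as log2 of CPM over the mean CPM of the 3 controls (colour; the scale ends at -2 and 2), with knockout libraries in the left columns and control libraries in the right, and cytosolic (cyt), endoplasmic reticulum (ER) and mitochondrial (mito) members in blocks from the top. The red block of knockouts 1 and 2 stops at knockout 3 for Hspa1a, Hspa1b, Hsp90aa1, Dnaja1 and Hspa5, and control 3 is the bluest cell for Hspb7.

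When knockout 3 was left out, 5 members passed edgeR's test at an adjusted p under 0.05 over all genes, all of them higher in knockout muscle, where 0.982% of all genes passed in either direction and 0.836% upward. They were Hsp90aa1 (log2 fold change 1.42, adjusted p = 0.0183), Hspa5 (0.84, 0.0259), Dnaja1 (1.09, 0.0282), Hsph1 (0.93, 0.0282) and Hspa8 (0.85, 0.0475). Hspa1a and Hspa1b did not pass there (2.37, adjusted p = 0.10, and 2.55, adjusted p = 0.0964). Knockout 3 was the lowest knockout for the 5 called members and for Hspa1a and Hspa1b, which was seen beforehand. Leaving it out raises their log2 fold changes by construction, so these calls are no independent support for a difference. Left out in turn, none of the other 5 libraries gave a called member. Without knockout 2, the highest library for each of these 5 genes, the log2 fold change was 0.68 for Hsp90aa1, 0.45 for Hspa5, 0.46 for Dnaja1, 0.46 for Hsph1 and 0.40 for Hspa8, with edgeR adjusted p-values between 0.700 and 0.734. Without knockout 2 it was 1.31 for Hspa1b. For Hspa1a the log2 fold change was 1.14 without knockout 2, and without control 2 it was 2.53, and none of its adjusted p-values over the 6 omissions was below 0.10.

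A smaller group of members did not overlap between knockout and control muscle. They were 10 above (13.9% of members tested, 8.38% of all genes) and 4 below (5.56%, against 8.87% of all genes). Besides Hspa8 the higher ones were Hspa4, an HSP110 exchange factor, the exchange factor Bag2, the J proteins Dnajb6, Dnajc13, Dnajb9, Dnajb11 and Dnaja3, and the mitochondrial Hspd1 and Hspa9. Dnajb6, a J protein of the Z-disc that prevents aggregation and is mutated in a human muscular dystrophy, was at 109, 107 and 109 CPM in knockouts, against 91.9, 98.6 and 93.5 CPM in controls (0.19, SE 0.072, edgeR adjusted p = 0.384). Its 3 knockout libraries lay within 3 CPM of one another, knockout 3 included. Hspa4 was at 141, 152 and 127 CPM in knockouts, against 114, 123 and 109 CPM in controls (0.28, SE 0.095, edgeR adjusted p = 0.363). The lower ones were Hspb3, Dnajc4, Dnajc21 and Hspa14. Hspb3, a muscle small heat shock protein that pairs with Hspb2, had the smallest p of them, at 12.3, 14.2 and 12.4 CPM in knockouts, against 17.7, 16.3 and 16.2 CPM in controls (log2 fold change -0.37, SE 0.095, edgeR adjusted p = 0.305). Its partner Hspb2 was at 63.4, 66.3 and 61.1 CPM in knockouts and 67.7, 59.1 and 73.1 CPM in controls. Dnajc21, a J protein of ribosome assembly, was at 73.3, 75.3 and 76.1 CPM in knockouts, against 79.5, 84.9 and 81.8 CPM in controls (-0.13, SE 0.071, edgeR adjusted p = 0.528). Of the genes not yet given, Bag2, an inhibitor of the ubiquitin ligase Chip, was at 22, 25.1 and 20.8 CPM in knockouts, against 19.9, 20.4 and 18.1 CPM in controls. Bag4, Dnajb12 and Dnajc12, also among the 6 lowest p-values downward, overlapped between groups, at -0.20, -0.18 and -0.15.

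In the endoplasmic reticulum Hspa5 (Entrez 14828; chromosome 2, 34772090 to 34776529) was at 262, 281 and 152 CPM in knockouts 1 to 3, against 164, 151 and 140 CPM in controls. Knockout 3 lay inside the control range (log2 fold change 0.61, SE 0.22, edgeR adjusted p = 0.372). Dnajb9, a J protein that restrains the stress sensor Ire1 (Entrez 27362; chromosome 12, 44205897 to 44210068), was at 47.9, 49.8 and 42.7 CPM in knockouts, against 34.6, 39.6 and 33.1 CPM in controls, so here all 3 knockouts were above the controls (0.39, SE 0.099, edgeR adjusted p = 0.305). It was the member with the smallest p, and DESeq2 gave it an adjusted p of 0.0458. Dnajb11, a lumenal J protein of Hspa5, was at 44.3, 49.3 and 42.3 CPM in knockouts, against 38.5, 40.8 and 37.9 CPM in controls (0.21, SE 0.084, edgeR adjusted p = 0.403). Dnajc3, a lumenal J protein also known as an inhibitor of the kinase Perk and related kinases, whose stress element is shown above, was at 54.6, 52.4 and 40.9 CPM in knockouts, against 49.3, 47.7 and 41.1 CPM in controls (0.10, SE 0.13, edgeR adjusted p = 0.800). Knockout 3 and control 3 were the lowest libraries. The J proteins anchored in the membrane differed in sign: Dnajb12 was at 51.2, 53.3 and 65.5 CPM in knockouts and 59.1, 58.5 and 75.3 CPM in controls, and the log2 fold changes were -0.18 for Dnajb12, 0.17 for its relative Dnajb14, -0.070 for Dnajc14 and -0.074 for Dnajc18.

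Hspa13, an HSP70 of microsomes, was at 15.3, 15.3 and 11.3 CPM in knockouts, against 11, 12.5 and 11.3 CPM in controls (0.27), again with knockouts 1 and 2 above every control.

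Among mitochondrial members no gene passed the test. Hspd1 (Entrez 15510; chromosome 1, 55077833 to 55088243) was at 274, 276 and 229 CPM in knockouts, against 216, 213 and 206 CPM in controls (log2 fold change 0.29, SE 0.096, edgeR adjusted p = 0.363). Hspe1, which shares the promoter shown above and forms the lid of the chaperonin, did not follow it, at 60.3, 57.6 and 47.5 CPM in knockouts and 52.6, 48.3 and 57.1 CPM in controls (0.066, SE 0.11, edgeR adjusted p = 0.859). Hspa9 was at 562, 540 and 565 CPM in knockouts, against 508, 521 and 420 CPM in controls (0.20, SE 0.10, edgeR adjusted p = 0.499). Control 3 was the lowest library, and without it the log2 fold change was 0.11. Dnaja3, its J protein in the matrix, was at 150, 142 and 151 CPM in knockouts, against 140, 131 and 133 CPM in controls (0.13, SE 0.074, edgeR adjusted p = 0.546). Of the 7 mitochondrial J proteins 5 had a negative log2 fold change, and the lowest was Dnajc4 at 15.6, 16.6 and 15.1 CPM in knockouts, against 17.5, 17.3 and 17.7 CPM in controls (-0.15, SE 0.080, edgeR adjusted p = 0.528). Its groups did not overlap. Dnajc15, a J protein of the inner membrane, was at 44.3, 48.4 and 41.5 CPM in knockouts, against 39.3, 39.3 and 44.3 CPM in controls (0.13, SE 0.090, edgeR adjusted p = 0.636).

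Among the small heat shock genes control 3 was the lowest control for 5 of the 7 tested (71.4%, against 48.6% of members and 38.8% of all genes). This was not particular to them, as it held for 7 of 11 HSP70 and 4 of 6 BAG members. Knockout 3 was the lowest knockout for 4 of the 7 small heat shock genes. Hspb7, a cardiac and skeletal muscle member that binds filamin C, was at 409, 361 and 610 CPM in knockouts, against 676, 963 and 183 CPM in controls (log2 fold change -0.40, SE 0.52, edgeR adjusted p = 0.803). The whole knockout range lay inside that of the controls. Hspb6 was at 1128, 916 and 1114 CPM in knockouts, against 927, 1085 and 472 CPM in controls (0.35, SE 0.28, edgeR adjusted p = 0.669). Cryab was at 583, 581 and 539 CPM in knockouts, against 645, 712 and 403 CPM in controls (-0.048, SE 0.20, edgeR adjusted p = 0.945). Without control 3 the log2 fold change was -0.83 for Hspb7, 0.065 for Hspb6 and -0.26 for Cryab, and without control 2 it was 0.58 for Hspb6 and turned positive for Hspb7 (0.093) and Cryab (0.11). Hspb8, the partner of Bag3, was at 481, 572 and 384 CPM in knockouts and 439, 436 and 550 CPM in controls (0.011, SE 0.16, edgeR adjusted p = 0.989).

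Control 3 also stood apart in slow fibre markers. Their summed level was 1079, 764 and 1739 CPM in knockouts 1 to 3, against 1418, 1378 and 165 CPM in controls 1 to 3, with 6 of 8 higher on average in knockout muscle and none at 0. Control 3, lowest for Hspb7, Hspb6 and Cryab, was far lowest for these markers, and knockout 2 was lowest of the knockouts for the markers and for both Hspb7 and Hspb6. Cryab was instead lowest of the knockouts in knockout 3, where the markers were highest, and Hspb2 and Hspb8 were highest of all controls in control 3. The part of fibre composition in these results was not tested.

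**Figure D4:**
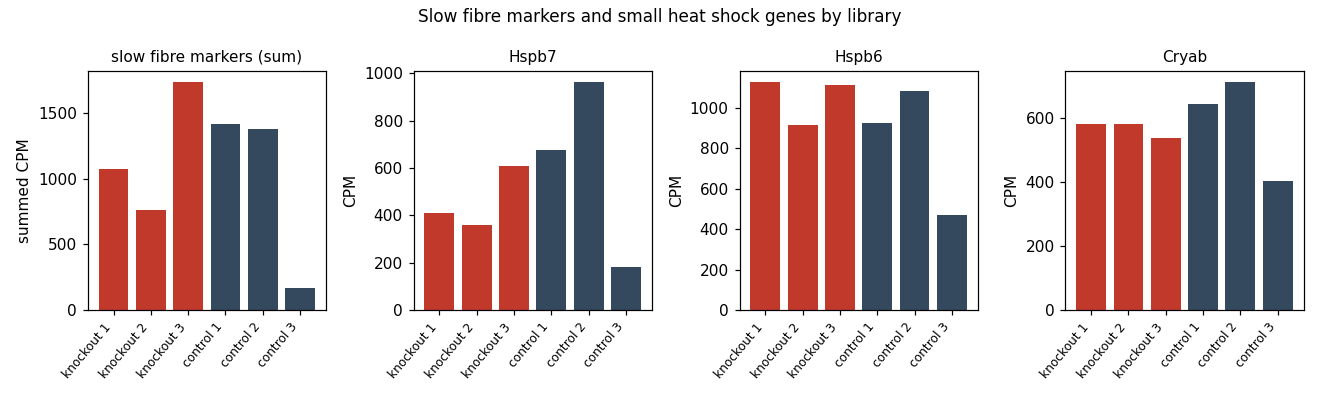
Summed CPM of 8 slow fibre markers and CPM of Hspb7, Hspb6 and Cryab (bars from 0) in knockout libraries (red, left) and control libraries (dark, right). Control 3 is the lowest bar in each panel, at 165 CPM for the markers and 183 CPM for Hspb7.

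Chaperone partners that the family names do not cover were read as fixed lists of 23 cytosolic, 16 endoplasmic reticulum and 13 mitochondrial genes. No partner passed over all genes by edgeR. At an unadjusted p under 0.05 there were 2 cytosolic (8.70%), 5 endoplasmic reticulum (31.25%) and 0 mitochondrial genes, all higher in knockout muscle (6.56% of all genes are higher at this level). Endoplasmic reticulum partners had a median log2 fold change of 0.35, with 15 of 16 positive, where 49.3% of all genes were positive. Of the 16, 12 (75.0%) had knockouts 1 and 2 above every control and knockout 3 not, against 9.66% of all genes. This order was looked for after the values of Hspa1a and its like were seen. Hsp90b1, the HSP90 of this compartment also called Grp94, was at 176, 187 and 107 CPM in knockouts, against 113, 119 and 104 CPM in controls (0.49, SE 0.20, edgeR adjusted p = 0.409). Creld2, a secretory pathway protein known as a stress gene, had the smallest p of the list, at 12.5, 11.3 and 6.43 CPM in knockouts, against 7.38, 5.26 and 6.34 CPM in controls (0.67, SE 0.25, edgeR adjusted p = 0.385). Calr, the lectin chaperone calreticulin, was the one gene of the list whose groups did not overlap, at 205, 211 and 158 CPM in knockouts and 157, 156 and 157 CPM in controls. That is 6.25% of the list, against 17.3% of all genes.

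Cytosolic partners had a median of 0.10, with 21 of 23 positive (49.3% of all genes) and 10 (43.5%) in the same order of libraries (9.66% of all genes). Chordc1, an HSP90 cochaperone, was at 59.6, 66.8 and 40.8 CPM in knockouts, against 42.8, 42.8 and 40.7 CPM in controls (0.40, SE 0.17, edgeR adjusted p = 0.416). Mitochondrial partners had a median of -0.091, with 10 of 13 negative and 1 in that order (7.69%). Pam16, a subunit of the mitochondrial import motor, was at 24.9, 24.4 and 24.4 CPM in knockouts, against 28.3, 25.1 and 31.3 CPM in controls (-0.20, SE 0.096, edgeR adjusted p = 0.480). Its groups did not overlap, nor did those of Clpp, a matrix protease subunit (lower in knockout muscle), and Timm44, which anchors the import motor (higher in knockout muscle). These genes are 23.1% of the list, against 17.3% of all genes, and 0 of the 23 cytosolic partners were without overlap. Chordc1, Creld2 and Pam16 had the smallest p of their lists; Calr, Clpp and Timm44 were chosen after its values were seen.

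**Figure D5:**
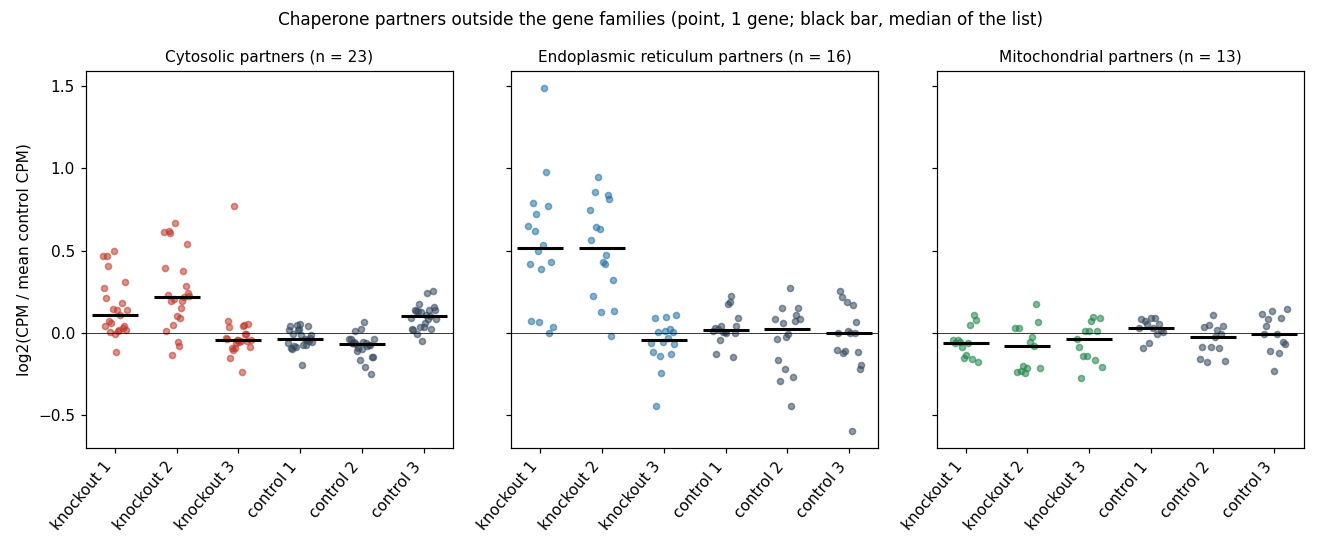
Log2 of CPM over the mean control CPM for each partner gene (points) and the list's median (black bars) in each library, knockout libraries left of control libraries in each panel. The endoplasmic reticulum median is 0.52 in knockout 1, 0.52 in knockout 2 and -0.043 in knockout 3, and the mitochondrial medians stay between -0.078 and 0.029.

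Fibroblast markers, which belong to cells with an active secretory pathway, summed to 2607, 2481 and 2181 CPM in knockouts, against 1670, 2229 and 1429 CPM in controls, with 6 of 6 higher on average in knockout muscle and none at 0. Macrophage markers summed to 56.7, 36.3 and 50.6 CPM in knockouts and 35.8, 58.6 and 33.7 CPM in controls, with 5 of 6 higher on average, none at 0. Endothelial markers summed to between 229 and 250 CPM in knockouts and between 217 and 289 CPM in controls, with 1 of 5 higher on average. Adipocyte markers summed to 212, 326 and 195 CPM in knockouts and 210, 195 and 228 CPM in controls, with 3 of 5 higher on average. Knockouts 1 and 2 were the highest libraries for the fibroblast sum as for the summed endoplasmic reticulum chaperones. Of the markers, Col1a1, Col1a2 and Col3a1 had that order and Dcn, Lum and Pdgfra did not. For Dcn, Lum and Pdgfra control 2 (834, 33.1 and 48.8 CPM) was above knockout 2 (683, 27.6 and 37.2 CPM). The part of other cell types in the chaperone results was not tested.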

How the data were processed

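Gene counts came from 6 strand-preserving, poly(A)-selected gastrocnemius libraries. Per the file headers the authors deposited unnormalized counts, FPKM (per gene length and library size) and TPM (not used in tests). The tools listed are StringTie 1.3.4d, Bowtie2 2.3.4.1, FastQC 0.11.7 and bcl2fastq 2.20.0, with the build mm10 (per the submitters' processing notes); no source says which tool counted or whether strand was used. In GENCODE M21, 23 of the 81 members have an exon overlapping one of an opposite-strand gene (Dnaja1, Hspb6, Cryab, Hspb2 and Dnajb9 among them), so reads there may be shared.

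Counts were tested with edgeR 4.0.16 (R 4.3.3): filterByExpr (minimum count 10; 14109 of 24532 genes kept), TMM, quasi-likelihood, Benjamini-Hochberg over all genes, threshold 0.05. SEs came from the F statistic; groups were compared for overlap in log2 CPM (prior count 2). Floors of 3 counts were 0.0454 to 0.0598 CPM and cover counting error only. The script was tested on simulated data. Sums were compared by two-sided exact permutation tests. Alternatives were DESeq2 1.42.0, limma 3.58.1 (voom, and log2 of FPKM plus 1 or 0.1), other size factors and filters, a replicate term and omission of each library. No library pair of a group matched within counting noise (lowest chi-square over its degrees of freedom, 35.3).

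The members, lists and tests were chosen with earlier results of these data known. Named are members past the threshold, the 6 smallest p in each direction, the most abundant by FPKM (8 cytosolic, 4 endoplasmic reticulum, 4 mitochondrial), 10 heat-inducible genes, Hsf1 and Hsf2, Hsp90b1, and of each partner list the smallest p. Other names were chosen after their values were seen. Coordinates are from RefSeq's GRCm38.p6 table.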

Additional observations from a re-analysis of the deposited data

How the results depend on the processing

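The number of genes called was 8 and that of members called was 0 by edgeR (13 members at an unadjusted p under 0.05). Leaving out single libraries gave between 1 and 141 genes and between 0 and 5 members, the highest of both without knockout 3. DESeq2 called 290 genes and 1 member, and limma-voom 5 genes and 0 members. Other size factors, filters and an adjusted p under 0.10 kept both counts within 1.5 times. Same-numbered libraries did not deviate together (correlations of -0.00823, -0.186 and -0.0981 over genes, against 0.177 for knockout 2 and control 3). Whether any shared a litter or day is not given in the labels and cannot be read from these correlations. With the replicate block 0 genes and 0 members were called, with 1164 genes and 14 members at an unadjusted p under 0.05.

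With log2 of FPKM plus 1 or plus 0.1 the median log2 fold change was -0.032 and -0.033 for cytosolic, 0.019 and 0.021 for endoplasmic reticulum and -0.046 and -0.047 for mitochondrial members, while the median over all genes was -0.047 and -0.070. Without single libraries the medians ran from 0.044 to 0.085, from 0.029 (without control 3) to 0.15 and from -0.015 (without control 2) to 0.073 (without control 3). Of 31 named members 25 kept the sign of their log2 fold change under all alternatives. The others ran, without single libraries, from -0.031 to 0.0021 (Bag1), -0.26 to 0.11 (Cryab), -0.085 to 0.24 (Dnajb1), -0.83 to 0.093 (Hspb7), -0.14 to 0.15 (Hspb8) and -0.0087 to 0.16 (Hspe1). With FPKM plus 1 and plus 0.1 they were -0.044 and -0.064 for Dnajb1, -0.070 and -0.070 for Hspb8 and -0.0089 and -0.0091 for Hspe1. The cause of these changes was not tested. Libraries of a group differed by more than counting noise; depth as a limit was not compared.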
